A study of Mus musculus with 6 samples.

Results

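The cytosolic ribosomal protein genes were taken from the count table by their symbols: Rpl or Rps followed by a digit, or Rplp0, Rplp1, Rplp2 and Rpsa, leaving out symbols with -ps and the Rps6k kinases. This gave 94 of 55011 gene symbols. They divided into 43 proteins of the large ribosomal subunit, 31 of the small subunit (Rpsa among them), the 3 proteins of the P stalk, 9 paralogs of these proteins and 8 further symbols that only match by name. Of the 8, Rps19bp1 encodes a regulator of a deacetylase and is no ribosomal protein, 6 are annotated as processed pseudogenes in GENCODE M21 (mm10), and Rps23rg1 had no gene there.

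The libraries were made from RNA of whole visceral adipose tissue, the abdominal fat depot, from C57BL/6 males aged 30 weeks, in 3 libraries labelled Bmal1WT and 3 labelled Bmal1KO. Feeding was low-fat during the first 14 weeks, high-fat during the next 16, and collection was at zeitgeber time 0 h. Both groups carried Foxp3.Cre-YFP, a recombinase with a fluorescent tag driven by the gene of the regulatory T cell factor FOXP3, and they differed in Bmal1 (Arntl), a transcription factor of the circadian clock. RNA came from the whole tissue, of which regulatory T cells are a part, so that the level of Arntl does not check the labels: its mean was 33.2 ± 6.16 CPM (CPM are counts scaled to library size, SD, n = 3) for Bmal1WT against 40.1 ± 8.06 CPM (SD, n = 3) for Bmal1KO (log2 fold change 0.27, SE 0.22, edgeR adjusted p = 0.719). Below, values for a group are listed in the order of replicates 1, 2 and 3.

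A cytosolic ribosome joins a small subunit, which reads the mRNA, to a large subunit, which makes the peptide bonds. The P stalk on the large subunit recruits the translation factors. Most ribosomal proteins are present in a single copy per ribosome, and their mRNAs begin with a run of pyrimidines, the 5' TOP (terminal oligopyrimidine) motif, through which mTORC1 and LARP1 control their translation. Their level relative to other mRNAs differs between cell types and is known to be high in lymphocytes.

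Libraries held 6514620 to 9529198 counts, and Bmal1KO replicate 1 was both the shallowest and the one with counts on the most genes (30019, against 19009 to 20145 in the other 5). Bmal1WT replicate 1 carried 337 CPM on a list of 12 epididymis and testis genes, against at most 3.23 CPM elsewhere. Adipocyte genes were abundant in all 6, as the tissue label says (25819 to 50970 CPM summed over 17 genes). All 77 large subunit, small subunit and P stalk genes passed the filter on low counts, with 494 to 56137 counts summed over the 6 libraries. The labels give no batch, and they do not say that replicates came from separate animals, so the p-values below reflect only how far these samples spread, which may be technical.

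Ribosomal protein mRNAs made up a larger share of the Bmal1KO libraries on average, but not in each of them. The 77 genes took 2.27, 2.43 and 1.97% of all counts among Bmal1WT libraries, and 2.33, 3.47 and 3.25% among Bmal1KO libraries. Bmal1KO replicates 2 and 3 lay above every Bmal1WT library, while Bmal1KO replicate 1 lay inside the Bmal1WT range. The group means were 2.22 ± 0.235% (SD, n = 3) and 3.02 ± 0.602% (SD, n = 3). In bulk tissue, fewer cells of a type and less RNA per cell cannot be told apart.

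Gene by gene, 76 of the 77 had a log2 fold change above 0, where 52% of the 13859 genes tested had one. The median was 0.39 on the log2 scale (1.31-fold), against 0.02 over all genes tested. No member passed the quasi-likelihood test of edgeR, Benjamini-Hochberg adjusted over all genes (smallest adjusted p = 0.382, Rps12), and neither did any other gene (0%). At an unadjusted p under 0.05, 33 of the 77 were higher and 0 lower, where 5.05% of all genes tested were higher. In 15 of the 77 all 3 Bmal1KO libraries lay above all 3 Bmal1WT libraries, against 7.83% of all genes tested, and in none were they all below, against 7.85%. DESeq2 and edgeR without a filter on low counts each called 1 member, Rps12, higher (0.25% and 0.313% of the genes they tested), and limma voom called 0 with 35 of the 77 higher at an unadjusted p under 0.05, where 6.03% of all genes tested were higher in that fit.

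**Figure D1:**
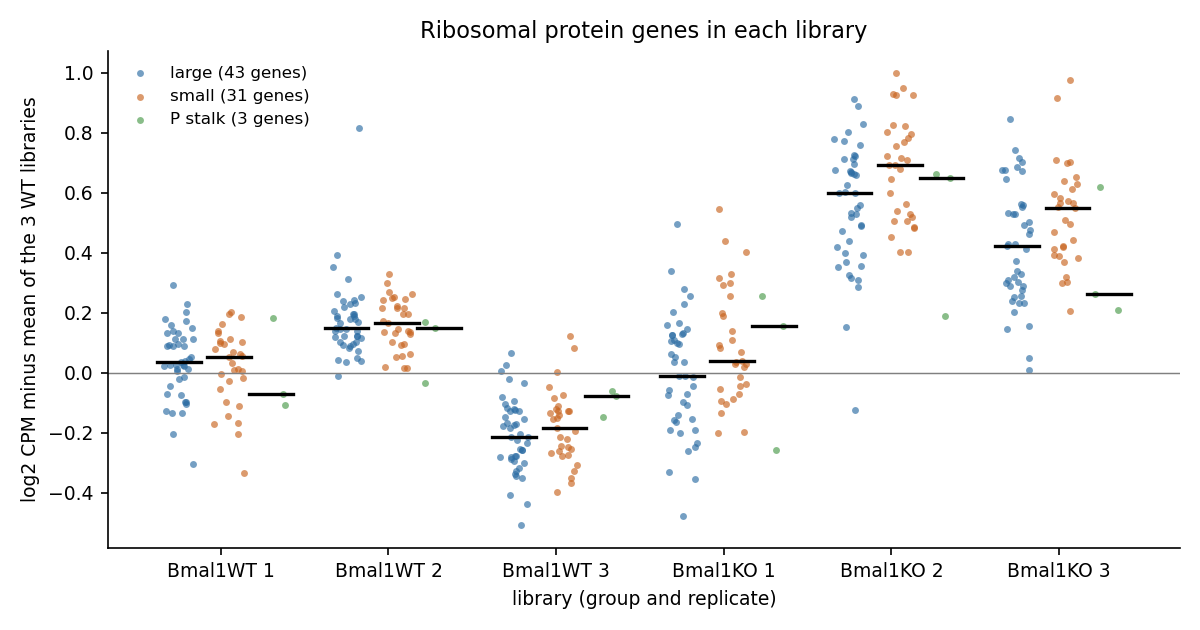
Each point is 1 of the 77 ribosomal protein genes, plotted as its log2 CPM in a library minus its mean log2 CPM over the 3 Bmal1WT libraries; black lines are the medians of the large subunit, small subunit and P stalk genes. Bmal1KO replicate 1 overlaps the Bmal1WT libraries, and Bmal1KO replicates 2 and 3 lie higher for nearly all genes.

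Most of these genes deviated upwards in Bmal1WT replicate 2 and Bmal1KO replicates 2 and 3, and downwards in Bmal1WT replicate 3. In replicate 1 of both groups they lay on both sides of 0. Relative to the Bmal1WT mean, the median gene stood at 0.04, 0.15 and -0.185 log2 units for the Bmal1WT libraries, and at 0.04, 0.645 and 0.46 for the Bmal1KO libraries. In Bmal1KO replicate 2, 75 of the 77 genes were above all 3 Bmal1WT libraries, and in replicate 3 it was 73. In Bmal1KO replicate 1 only 15 genes were above all Bmal1WT libraries and 8 were below all of them. Because the members share their libraries, these counts are not independent of each other.

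Without Bmal1KO replicate 1 the median log2 fold change of the 77 genes was 0.54. Of them, 5 were higher at an edgeR adjusted p under 0.05, among them Rps12, Rpl12, Rpsa and Rpl23. In that comparison of 3 libraries with 2, 0.323% of all genes tested were higher and 0.772% lower at that adjusted p. At an unadjusted p under 0.05, 65 of the 77 were higher, where 7.53% of all genes tested were. This fit leaves out the Bmal1KO library whose ribosomal protein share lay inside the Bmal1WT range. It gave the highest counts of the fits with 1 library left out, and in the others none of the 77 passed the adjusted threshold. Without Bmal1KO replicate 2 the median was 0.23, with 10 of the 77 higher at that unadjusted p (4.49% of all genes tested). Without Bmal1WT replicate 3 it was 0.28, with 13 of the 77 higher (4.84%). Without Bmal1WT replicate 1, the library with counts on epididymis and testis genes, it was 0.41, with 13 of the 77 higher at an unadjusted p under 0.05, where 4.35% of all genes tested were higher in that fit. Without Bmal1KO replicate 3 it was 0.335, with 16 of the 77 higher (4.17% of all genes tested). Without Bmal1WT replicate 2 it was 0.48, with 28 of the 77 higher (4.61%).

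**Figure D2:**
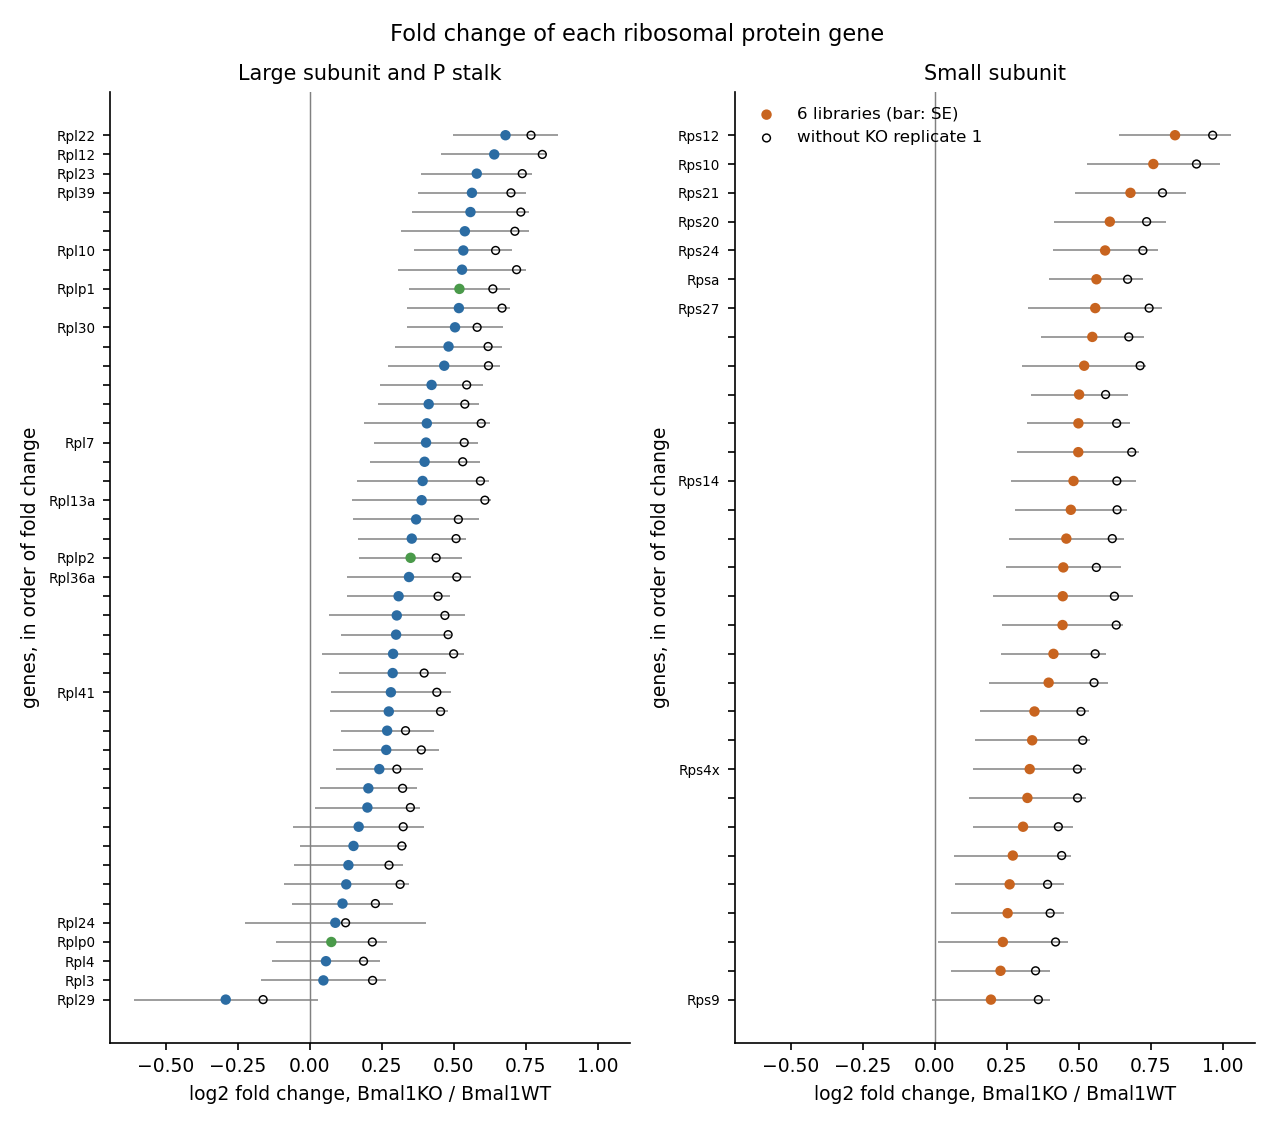
Log2 fold change of each ribosomal protein gene, Bmal1KO over Bmal1WT, in order of size and with the genes of the text labelled, with its SE as a bar (filled points, 6 libraries; green points are the P stalk) and without Bmal1KO replicate 1 (open circles). Only Rpl29 lies under 0, and Rps12 has the largest value.

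Among small subunit genes, all 31 had a log2 fold change above 0, where 52% of all genes tested had one. The median was 0.45 and the range 0.195 (Rps9) to 0.83 (Rps12). At an unadjusted p under 0.05, 17 were higher, where 5.05% of all genes tested were. Rps12 (mm10 chromosome 10, 23785183 to 23787275), a protein of the beak of the small subunit, was at 101, 148 and 139 CPM among Bmal1WT libraries, and at 186, 255 and 250.5 CPM among Bmal1KO libraries. The lowest Bmal1KO library was above the highest Bmal1WT library, and the log2 fold change was 0.83 (SE 0.195, edgeR adjusted p = 0.382). This is the member that DESeq2 called (adjusted p = 0.0353). It has 24 rows of -ps symbols in the table, which together held 94 counts over the 6 libraries.

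Rps21, which sits beside Rpsa in the subunit, was at 154, 212 and 158 CPM among Bmal1WT libraries, and at 234, 334 and 271 CPM among Bmal1KO libraries (log2 fold change 0.68, SE 0.19). Rpsa (mm10 chromosome 9, 120127689 to 120132369), which also has a life as a laminin receptor, was at 233, 252 and 264 CPM and at 310, 390 and 405 CPM (0.56, SE 0.16). In both, the groups did not overlap. Rps24, whose gene is mutated in a congenital anaemia, was at 218, 258 and 195 CPM and at 272, 378 and 361 CPM (0.59, SE 0.18), again without overlap.

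Rps20, another protein of the beak, was at 166, 240 and 175 CPM among Bmal1WT libraries, and at 239.5, 333 and 312 CPM among Bmal1KO libraries (log2 fold change 0.61, SE 0.195), so that Bmal1KO replicate 1 met the highest Bmal1WT library. Rps10, near the mRNA entry, was poorly counted, at 17.6, 23.1 and 19.15 CPM and at 26.2, 37.6 and 37.35 CPM (0.76, SE 0.23). Its 4 -ps rows held counts equal to 15.6% of its own, the highest share among the 77 genes, so its level is uncertain. At the other end, the log2 fold change of Rps9 was 0.195 (SE 0.21), and its groups overlapped: it was at 520 to 652 CPM among Bmal1WT libraries, and at 525 to 864 CPM in Bmal1KO.

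Among large subunit genes, 42 of 43 had a log2 fold change above 0, where 52% of all genes tested had one. The median was 0.34 and the range -0.29 (Rpl29) to 0.68 (Rpl22). At an unadjusted p under 0.05, 15 were higher, where 5.05% of all genes tested were. Rpl22 (mm10 chromosome 4, 152325742 to 152334071), an RNA-binding protein that is dispensable for the ribosome itself and needed in developing T cells, was at 101, 138 and 97.9 CPM among Bmal1WT libraries, and at 156, 197 and 185 CPM among Bmal1KO libraries. All Bmal1KO libraries were above all Bmal1WT libraries (log2 fold change 0.68, SE 0.18, edgeR adjusted p = 0.414). Rpl12 (mm10 chromosome 2, 32961559 to 32965345), at the base of the stalk, was at 164, 182 and 173 CPM and at 203, 295 and 311 CPM (0.64, SE 0.18). Its Bmal1WT libraries were close together and again under every Bmal1KO library.

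Rpl10, which joins the large subunit last and shapes the tRNA site, was at 362, 425 and 402 CPM among Bmal1WT libraries, and at 479.5, 610 and 631 CPM among Bmal1KO libraries (log2 fold change 0.53, SE 0.17). Rpl30 was at 76.5, 97.3 and 92.4 CPM and at 112, 128 and 138 CPM (0.50, SE 0.165). In these 2 genes the groups did not overlap. Rpl23 and Rpl39, the latter a very short protein at the peptide exit tunnel, differed by 0.58 (SE 0.19) and 0.56 (SE 0.19) on the log2 scale, and in both Bmal1KO replicate 1 was below Bmal1WT replicate 2.

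The highly expressed large subunit proteins Rpl3 and Rpl4, which reach into the peptide-joining centre and the exit tunnel, had fold changes near 0. Rpl3 was at 719, 582 and 483 CPM among Bmal1WT libraries, and at 458.5, 731 and 654 CPM among Bmal1KO libraries (log2 fold change 0.05, SE 0.22). Rpl4 was at 1162, 1107 and 965 CPM and at 906, 1194 and 1263 CPM (0.06, SE 0.19). The groups overlapped fully, and leaving out Bmal1KO replicate 3 or Bmal1WT replicate 3 turned the sign of both. Rpl29, named after its values were seen, had the one log2 fold change of the 77 under 0 (-0.29, SE 0.32), with 81.1 CPM in Bmal1WT replicate 2 against 32.4 to 47.65 CPM in the other 5 libraries.

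The P stalk genes gave unequal values. Rplp1, which pairs with Rplp2 in the arms of the stalk, was at 529, 616 and 526 CPM among Bmal1WT libraries, and at 662, 879 and 853 CPM among Bmal1KO libraries, without overlap (log2 fold change 0.52, SE 0.18). Its partner Rplp2 was at 197, 238 and 203 CPM and at 236, 332 and 245 CPM (0.35, SE 0.18), with overlap. Rplp0, the protein that anchors both to the ribosome, was at 1227, 1055 and 975 CPM and at 903, 1231 and 1295 CPM (0.075, SE 0.19), with Bmal1KO replicate 1 the lowest of the 6 libraries. Rplp0 (36B4) is often used as a reference gene in quantitative PCR, and here it had one of the smaller fold changes, though its sign turned without Bmal1KO replicate 3 (-0.03).

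The counts of the large subunit relative to the small subunit separated the groups in all 6 libraries. Summed large subunit counts over summed small subunit counts were 1.11, 1.11 and 1.105 for the Bmal1WT libraries, and 1.055, 1.04 and 1.05 among Bmal1KO libraries. The ratio was 1.108 ± 0.003 (SD, n = 3) in Bmal1WT and 1.047 ± 0.008 (SD, n = 3) in Bmal1KO, a difference of -0.082 on the log2 scale. Bmal1KO replicate 1, which lay with Bmal1WT in the level of these genes, lay with the other Bmal1KO libraries in this ratio. With each gene centred on its mean over the 6 libraries and medians over genes in place of sums, the log2 difference of large from small was 0.06, 0.04 and 0.04 in Bmal1WT and 0.002, -0.07 and -0.05 in Bmal1KO, also without overlap. This is a score over the members and was not tested.

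The difference was smaller without 2 long genes. Without Rpl3 and Rpl4, chosen after their values were seen, the log2 ratio was -0.10, -0.065 and -0.09 in Bmal1WT and -0.12, -0.13 and -0.13 in Bmal1KO, a difference of -0.04 with no overlap. Within proteins of at most 160 amino acids, the difference was -0.04 and the groups overlapped. The longest proteins had the smallest median fold change. The 18 genes for proteins of up to 120 amino acids had a median log2 fold change of 0.45, and the 18 for proteins above 210 amino acids had 0.29. The groups between them, of 27 and 14 genes, had nearly equal medians of 0.398 and 0.397. Over the 77 genes, Spearman's rho between log2 fold change and protein length was -0.34 and Pearson's r was -0.35. Other properties also had a negative rho: -0.23 for mean CPM in Bmal1WT, -0.215 for transcript length and -0.21 for GC content. Pearson's r for these was -0.275, -0.021 and -0.227. The genes share the same 6 libraries, and of the 18 longest proteins 11 are of the large subunit, 6 of the small subunit and 1 of the P stalk.

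**Figure D3:**
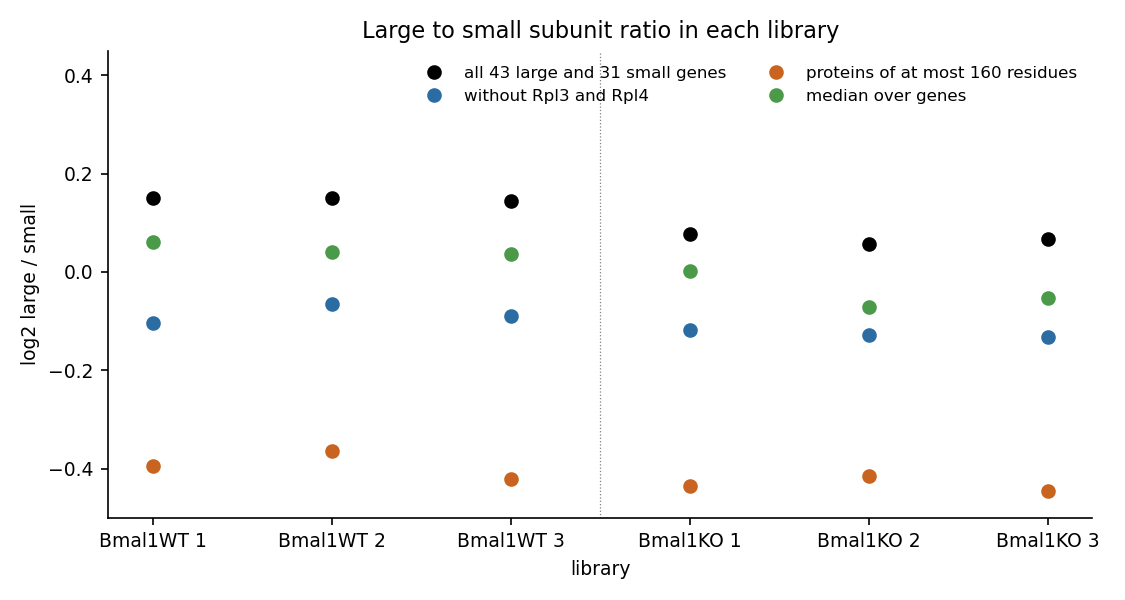
Log2 ratio of large to small subunit counts in each library, from summed counts of all genes (black), without Rpl3 and Rpl4 (blue), for proteins of at most 160 amino acids (orange) and as the difference of medians over genes (green, each gene centred on its mean over the 6 libraries). The black points of the 3 Bmal1KO libraries all lie under those of the 3 Bmal1WT libraries, and the orange points overlap.

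The paralogs had fold changes on both sides of 0. Of the 9 paralogs 6 passed the filter on low counts, with a median log2 fold change of -0.006, 3 above 0 and 3 under it, and none passed edgeR's test or had an unadjusted p under 0.05. Their level relative to the related gene was compared in 6 pairs with a two-sided exact permutation test over libraries, in which 3 against 3 can give no p under 0.1. The ratio was lower in every Bmal1KO library than in every Bmal1WT library for 3 pairs, Rpl22l1 to Rpl22, Rps27l to Rps27 and Rpl7l1 to Rpl7, each with exact p = 0.1 (0.2 adjusted over the 6 pairs).

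Rpl22l1, a paralog that Rpl22 is known to hold down and that can take its place in the ribosome, was at 78.25, 84.5 and 56.5 CPM among Bmal1WT libraries, and at 57.1, 79.8 and 71.1 CPM among Bmal1KO libraries. Its groups overlapped (log2 fold change -0.07, SE 0.20). As a share of Rpl22 counts it was 77.6, 61.4 and 57.7% in Bmal1WT and 36.6, 40.6 and 38.35% in Bmal1KO, a difference of -0.75 on the log2 scale with SDs of 0.22 and 0.07. The Bmal1KO libraries lay close together, Bmal1KO replicate 1 included, and below all Bmal1WT libraries.

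Rps27l, a paralog of the zinc-finger protein Rps27 that is known as a p53 target, was at 234, 238 and 163 CPM among Bmal1WT libraries, and at 195, 256 and 202 CPM among Bmal1KO libraries (log2 fold change 0.04, SE 0.19). Rps27 itself was at 288, 324 and 208 CPM and at 290, 511 and 406.5 CPM (0.56, SE 0.23). The ratio of Rps27l to Rps27 was 81.2, 73.4 and 78.15% in Bmal1WT and 67.4, 50.2 and 49.7% in Bmal1KO, a log2 difference of -0.49. Bmal1KO replicate 1 lay between the Bmal1WT libraries and the other Bmal1KO libraries.

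Rpl7l1, which acts in ribosome assembly, was at 117 to 136 CPM among Bmal1WT libraries, and at 107 to 138 CPM in Bmal1KO, while Rpl7 was at 360 to 448 CPM and at 433 to 597 CPM. Their ratio was 33.0, 27.3 and 32.6% in Bmal1WT and 24.7, 23.1 and 20.02% in Bmal1KO (log2 difference -0.45). Rpl36al, which encodes a near-identical copy of Rpl36a, was at 34.4, 31.5 and 40.35% of Rpl36a in Bmal1WT and at 33.65, 27.9 and 29.9% in Bmal1KO, with overlap (log2 difference -0.21, exact p = 0.2, adjusted 0.24). The similar sequences of such pairs can split reads between them.

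Rps4l, annotated as a transcribed processed pseudogene, was at 42.9, 39.4 and 35.2 CPM among Bmal1WT libraries, and at 37.3, 27.9 and 22.95 CPM among Bmal1KO libraries (log2 fold change -0.42, SE 0.22). Relative to Rps4x, the X-linked small subunit gene, it was at 6.44, 6.06 and 6.29% and at 6.29, 3.27 and 2.52%, so that Bmal1KO replicate 1 met the Bmal1WT libraries and the other Bmal1KO libraries had less (log2 difference -0.74, exact p = 0.2, adjusted 0.24). Rps27rt, a retrocopy of Rps27, had at most 3.40 CPM in any library and a ratio that differed by -0.07 (exact p = 0.8, adjusted 0.8).

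**Figure D4:**
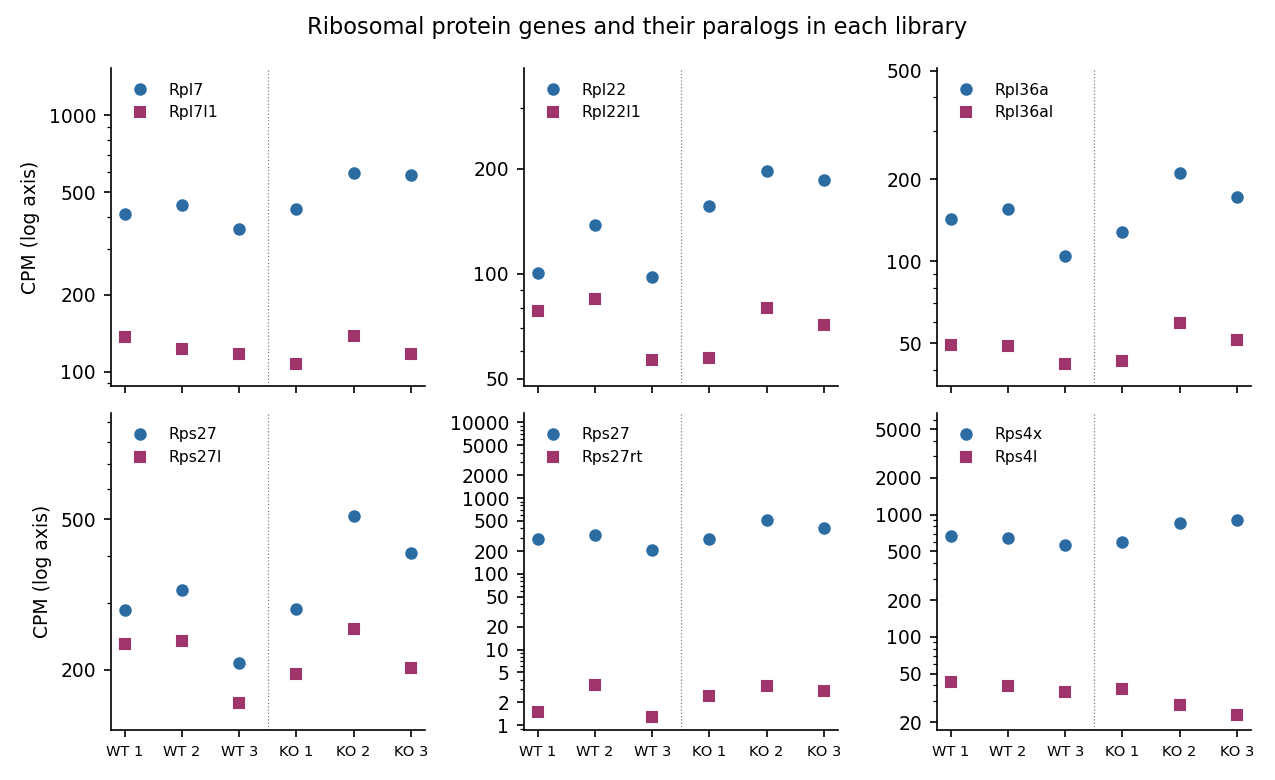
CPM on a log axis of ribosomal protein genes (blue circles) and their paralogs (purple squares), 1 panel for each of 6 pairs, in the 3 Bmal1WT and 3 Bmal1KO libraries. The gap between Rpl22 and Rpl22l1 is wider in all 3 Bmal1KO libraries than in any Bmal1WT library, with Rpl22l1 itself in the same range in both groups.

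The remaining 3 paralogs did not pass the filter. Rpl3l, the form of striated muscle, had at most 3 counts in any library, and Rpl10l, a retrogene of male germ cells, had 0 in all 6. Rpl39l, also known from male germ cells, had 9, 1 and 2 counts across Bmal1WT libraries, and 23, 8 and 11 among Bmal1KO libraries. Those of Bmal1WT replicate 1, the library with counts on epididymis and testis genes, were within the Bmal1KO range. Of the 8 symbols that match only by name, Rps19bp1 was at 44.2 ± 4.64 CPM (SD, n = 3) and 40.4 ± 4.23 CPM (SD, n = 3), Rpl37rt was at 2.04 to 5.44 CPM, Rps3a3 had 4 to 17 counts, and the other 5 (Rpl32l, Rpl6l, Rps3a2, Rps12l1 and Rps23rg1) did not pass, with at most 9 counts in a library.

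Levels between members were compared per kilobase of the shortest transcript with a CCDS tag in GENCODE M21. In Bmal1WT the highest was Rpl41, the shortest ribosomal protein, at 1434 CPM per kilobase, and Rps14 was also among the highest at 1202. The lowest were Rpl24 at 14.1, Rpl13a at 29.3 and Rps10 at 40.0 CPM per kilobase. Rpl24, at 8.56, 12.3 and 7.855 CPM in Bmal1WT and 9.62, 11.4 and 9.43 CPM in Bmal1KO, had the fewest counts of the 77 genes. How reads with several hits were counted is not given in the sources used here, and processed copies of many of these genes share their sequence, so that a low level in this table is uncertain.

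The 319 -ps rows of ribosomal protein symbols held 717 to 1114 counts per library, equal to 0.37 to 0.52% of the counts of the 77 genes, the highest share in Bmal1KO replicate 1. With those counts added to the parent genes the median log2 fold change was 0.405. The 77 genes lie on 19 chromosomes, with the most, 14, on chromosome 7 and 4 on X (Rpl10, Rpl36a, Rpl39 and Rps4x).

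Promoter windows of RefSeq (GRCm38.p6, the assembly of mm10), from 250 bases before to 50 after an annotated start, were found for 57 of the 77 genes and for 27025 symbols in all. A symbol can have windows at several annotated starts, and it was counted where any of them held the motif. The windows were searched on both strands for the E-box CACGTG, which BMAL1 with CLOCK is known to bind, for the ETS factor motif CCGGAAG and for the pyrimidine runs CTTTTC and CTTTCC of TOP starts. CACGTG was in 6 of 57 (10.5%, against 8.1% of all symbols): Rpl13a, Rpl14, Rpl19, Rpl23, Rpl34 and Rps19. The median log2 fold change of these 6 was 0.33 and that of the other 51 was 0.37. CCGGAAG was in 42.1% (against 9.9%), CTTTCC in 50.9% (against 29.3%) and CTTTTC in 28.1% (against 24.3%). On the gene's strand alone, where a TOP run would lie, CTTTCC was in 40.4% (against 16.0%) and CTTTTC in 21.1% (against 12.9%). CTTTTC and CTTTCC can overlap in their outer bases. Median log2 fold changes were split by a match on either strand, not on the gene's strand alone. With and without CCGGAAG they were 0.35 and 0.37, with and without CTTTCC 0.34 and 0.36. For CTTTTC they were 0.45 and 0.33. A match describes the letters only, and no match says only that they are not in this window.

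The windows below run from 60 bases before the annotated start to 30 bases from it, 5′ to 3′ on the gene's strand, with matches to the 4 motifs in capitals. Rps12, Rps21, Rpl12 and Rpl23 are shown as genes of large fold change, Rpl23 with an E-box, and Rpl4 and Rplp0 as genes of small fold change. Rps27 and its paralog Rps27l are shown as a pair. Rps21 and Rps27l each have 2 annotated starts in the table, and the window of the first along the chromosome is shown.
Rps12 (chr10:23787180-23787269, minus strand): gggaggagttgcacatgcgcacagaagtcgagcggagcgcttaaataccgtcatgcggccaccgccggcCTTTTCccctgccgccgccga
Rps21 (chr2:180257319-180257408, plus strand): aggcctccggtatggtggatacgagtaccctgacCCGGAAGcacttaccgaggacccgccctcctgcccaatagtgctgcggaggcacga
Rpl12 (chr2:32961652-32961741, plus strand): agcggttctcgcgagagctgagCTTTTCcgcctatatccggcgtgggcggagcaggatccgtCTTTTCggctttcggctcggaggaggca
Rpl23 (chr11:97782410-97782499, minus strand): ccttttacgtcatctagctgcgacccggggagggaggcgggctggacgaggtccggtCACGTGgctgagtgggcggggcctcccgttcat
Rpl4 (chr9:64173327-64173416, plus strand): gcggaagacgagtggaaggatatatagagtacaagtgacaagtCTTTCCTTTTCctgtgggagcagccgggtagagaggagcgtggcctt
Rplp0 (chr5:115559407-115559496, plus strand): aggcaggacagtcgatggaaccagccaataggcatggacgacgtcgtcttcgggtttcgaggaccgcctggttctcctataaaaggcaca
Rps27 (chr3:90213619-90213708, minus strand): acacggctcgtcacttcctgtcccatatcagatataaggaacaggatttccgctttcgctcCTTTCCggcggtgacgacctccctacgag
Rps27l (chr9:66946026-66946115, plus strand): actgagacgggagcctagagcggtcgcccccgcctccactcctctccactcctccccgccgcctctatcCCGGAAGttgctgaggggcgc
Rps12 and Rpl12 hold CTTTTC within 30 bases after the annotated start, Rpl12 also upstream of it, the E-box of Rpl23 spans its start, Rps21 holds the ETS motif upstream of the start shown, and Rpl4 holds both pyrimidine runs, overlapping, upstream of its start. The window of Rplp0 holds none of the 4 motifs. Rps27 holds CTTTCC after its start, and Rps27l holds CCGGAAG after the start shown. At the second start of Rps21 and of Rps27l, the window of the same length holds none of the 4 motifs.

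Ribosomal protein genes whose symbols fall outside the rule did not pass the test either. Fau, which encodes a ubiquitin-like protein fused to a small subunit protein, averaged 346 ± 54.6 CPM over the Bmal1WT libraries and 448 ± 129 CPM over the Bmal1KO libraries (SD, n = 3; log2 fold change 0.37, SE 0.22). Rack1, the scaffold on the small subunit, was at 438 ± 23.0 and 541 ± 93.2 CPM (0.31, SE 0.17).

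A list of translation factors and other genes taken as having TOP starts, which were not checked here, had a median closer to 0. Of 30 such genes, 19 had a log2 fold change above 0 and 11 under it, with a median of 0.06, none passed edgeR's test, and 3 were higher at an unadjusted p under 0.05 (5.05% of all genes tested). These 3 were Eif4b, an initiation factor, Tpt1, a tumour protein under translational control, and Eef1b2, an exchange factor of elongation. Tpt1 was at 270, 290 and 285 CPM among Bmal1WT libraries, and at 325, 437 and 451 CPM among Bmal1KO libraries (log2 fold change 0.52, SE 0.17). Eif4b was at 107 ± 10.9 and 149.75 ± 8.18 CPM (SD, n = 3; 0.48, SE 0.15), and Eef1b2 at 287 ± 26.6 and 390 ± 53.8 CPM (0.44, SE 0.17). In these 3 genes the groups did not overlap. Of the 30 genes, 4 were higher without overlap and 1 lower, against 7.83% and 7.85% of all genes tested.

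Regulators of TOP mRNA translation had a median log2 fold change of -0.10, with 5 of 16 above 0 and 11 under it. None passed edgeR's test, and 2 were lower at an unadjusted p under 0.05, where 4.26% of all genes tested were. Eif4ebp1, the repressor of cap-dependent translation that mTORC1 switches off, was at 527, 559 and 548 CPM among Bmal1WT libraries, and at 520, 360 and 300 CPM in Bmal1KO (-0.47, SE 0.21). Rheb, the small GTPase that switches mTORC1 on, was at 169, 154 and 127 CPM and at 118, 108 and 109 CPM (-0.43, SE 0.16). Rictor, the scaffold of the other mTOR complex, was at 6.79 ± 1.37 and 10.8 ± 1.85 CPM (SD, n = 3; 0.67, SE 0.33). In each of these 3 genes the groups did not overlap. Of the 16 genes, 1 was higher without overlap and 3 lower, against 7.83% and 7.85% of all genes tested.

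Levels of several cell type lists also differed between these libraries, and their part in the result was not tested. All 18 T cell genes had a log2 fold change above 0, and their summed level was 97.0 to 170 CPM in Bmal1WT and 197, 358 and 287 CPM among Bmal1KO libraries. Macrophage genes, 12 of 13 above 0, summed to 8807 to 13205 CPM in Bmal1WT and to 8757, 15774 and 18595 CPM in Bmal1KO, with Bmal1KO replicate 1 just below the lowest Bmal1WT library. Adipocyte genes, all 17 under 0, summed to 40230 to 50970 CPM and to 50275, 31359 and 25819 CPM, with Bmal1KO replicate 1 inside the Bmal1WT range and the other Bmal1KO libraries below it. Endothelial genes, all 13 under 0, summed to 490 to 1042 CPM and to 570, 345.5 and 380 CPM.

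B cell genes, 9 of 10 tested above 0, summed to 109 to 163 CPM in Bmal1WT and to 156, 89.8 and 426 CPM in Bmal1KO, and plasma cell genes, 8 of 10 tested above 0, to 1964 to 2345 CPM and to 4862, 1100 and 8407.5 CPM. Both sums were lowest in Bmal1KO replicate 2, the library with the highest ribosomal protein share and the highest T cell sum. For B cells this depended on the measure. Ebf1, the gene of that list under 0, held 50.5 of the 89.8 CPM of Bmal1KO replicate 2. It also held 75.7 of the 109 CPM of Bmal1WT replicate 2. With log2 deviations from the Bmal1WT mean averaged over genes, the B cell list was lowest in Bmal1WT replicate 2 (-0.847). Bmal1KO replicate 2 stood at -0.276. The part of these lists in the ribosomal protein share was not tested. All 8 mast cell genes and all 10 mesothelial genes were above 0, with summed levels of 74.4 to 157 and 251 to 517 CPM in Bmal1WT and of 265 to 417 and 541 to 599 CPM in Bmal1KO. No gene of these 8 lists was at 0 in all libraries.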

How the data were processed

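RNA of whole visceral adipose tissue was made into cDNA with oligo(dT) and sequenced without molecular identifiers, per the labels' protocols. The authors deposited whole-number counts per gene symbol, made with STAR 2.7.3a and featureCounts on mm10, per the submitters' processing notes. Annotation, strand setting and the handling of multi-hit reads: not given in the sources used here.

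Counts were fitted with edgeR 4.0.16 (R 4.3.3): filterByExpr left 13859 of 55011 symbols, TMM scaling was used, and Bmal1KO was compared with Bmal1WT (3 libraries each) by the quasi-likelihood test, p-values being Benjamini-Hochberg adjusted across all genes tested, with a threshold of 0.05. CPM use TMM-scaled library sizes. Paralog ratios used CPM with a pseudocount of 0.5. Positions, lengths and GC content came from GENCODE M21 and promoters from RefSeq. Alternatives used DESeq2 1.42.0 and limma 3.58.1. The test was tried on simulated counts with larger changes in genes drawn at random, which cannot show its power for these members. A count of 3, taken as the detection floor, is 0.323 to 0.451 CPM here, for counting error only.

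Named genes were Rplp0, Rplp1, Rplp2, Rpsa, all paralog pairs, symbols outside the ribosomal protein lists, and per subunit the 6 of smallest p and 2 of smallest fold change. Added to these were members past the threshold, the 3 highest and lowest per kilobase, and the 3 of smallest p in other lists. A few genes are in the counts and medians but are not reported here by name. Members and lists were chosen with earlier results of these data known.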

Additional observations from a re-analysis of the deposited data

How the results depend on the processing

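No member passed the threshold in the test as reported, and 0 of all genes did. DESeq2 called 60 genes and 1 member, edgeR without a low-count filter 186 and 1, and the comparison without replicate 1 of both groups 61 and 0. Leaving out 1 library gave 0 to 156 genes and 0 to 5 members, the highest of each without Bmal1KO replicate 1. Scaling by library size alone raised the median log2 fold change of all genes to 0.11 and of the 77 ribosomal protein genes to 0.485, a gap of 0.37 as before. Leaving out 1 library gave medians of the 77 from 0.23 to 0.54.

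Same-numbered replicates were treated as unpaired in the main fit, since the labels do not say that the numbers link them. Their deviations correlated at -0.07, 0.09 and -0.03, which with 3 libraries in each group cannot decide it. With a replicate block the median was 0.37, 24 of the 77 were higher at an unadjusted p under 0.05 (4.4% of all genes tested were), and 0 genes were called.

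Chosen after seeing the data, the log2 difference in the large to small subunit ratio was -0.040 without Rpl3 and Rpl4, -0.038 for proteins of at most 160 amino acids and -0.090 with the P stalk counted as large. The Rps27rt to Rps27 difference turned to 0.024 with a pseudocount of 0.1, and leaving out 1 library gave -0.26 to 0.14.

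Of 629 values of 37 named genes, 602 kept their direction and side of the threshold, 6 passed it and 21 turned sign. Rpl7l1 and Rpl22l1 stood at 0.039 and 0.021 with library size alone and at 0.093 and 0.105 without replicate 1 of both groups, where Rps19bp1 stood at 0.00037. Rps27l stood at -0.073 with the length and GC trend removed. Leaving out 1 library gave log2 fold changes from -0.031 to 0.22 for Rplp0, -0.10 to 0.22 for Rpl3, -0.044 to 0.19 for Rpl4, -0.17 to 0.022 for Rpl7l1, -0.22 to 0.045 for Rpl22l1, -0.11 to 0.14 for Rps27l, -0.031 to 0.31 for Rpl24 and -0.020 to 0.62 for Rpl37rt. The cause was not tested.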
